A study of Homo sapiens with 4 samples.

Results

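The nuclear-encoded subunits of the mitochondrial respiratory chain and ATP synthase were examined as 86 of the 47432 genes in the expression table. They were chosen by symbol alone: names beginning NDUF with A, B, C, S or V and a digit, SDHA to SDHD, names beginning UQCR, names beginning COX with a digit from 4 to 8, and names beginning ATP5F1, ATP5M or ATP5P. The patterns matched 94 rows, of which 8 were left out because their names hold a hyphen. By symbol the genes fell into complex I (38 genes), complex II (4), complex III (9), complex IV (17) and complex V (18). The rule misses CYC1 and NDUFAB1, which also encode subunits. It places NDUFA4 with complex I, although that protein is now assigned to complex IV.

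The cells were T24, an established line from an invasive bladder carcinoma. RNA-seq was done on 2 control libraries, labelled untreated, and on 2 libraries of cells given isorhapontigenin (ISO, a plant stilbene) at 20 µM for 24 h. The study's methods give DMSO as the vehicle, and they name another culture medium than the labels. All 4 libraries are from the same line with no engineered allele, and the sources do not state whether libraries a and b of a group are separate cultures. The p-values below therefore rest on the spread of these 4 libraries, and that spread may be only technical. The recovered reads on genes ranged from 32349827 in ISO b, the shallowest library, to 42879427 in control a. Epithelial keratins were high (KRT7 at 310 to 371 RPKM and KRT18 at 256 to 302), whereas CDH1 was at or near 0 in all libraries, as were the urothelial genes UPK1B, UPK3A, KRT5 and KRT20. Of the genes that mark other cell types, PTPRC, CD3E, COL1A2, COL3A1 and DCN were at 0, while COL1A1 was at 0.748 to 0.990 RPKM, CD14 at 2.98 to 3.67 and the endothelial gene CDH5 at 14.02 to 17.70 with VWF near 0. By limma, CDH5 (log2 fold change -0.37), KRT7 (-0.31), KRT18 (-0.27), KRT19 (-0.37) and PPARG (-0.95) were lower in ISO and GATA3 (0.50) was higher, with adjusted p from 0.002 to 0.015. PECAM1, another endothelial gene, was at 0.121 and 0.0732 RPKM in control and 0.168 and 0.194 in ISO (log2 fold change 0.49, adjusted p = 0.291 from limma, 0.042 from limma-voom). The part of these markers in the subunit values was not tested. In bulk RNA, a shift in the mix of cells and a change in RNA per cell cannot be told apart.

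Complexes I to IV pass electrons from NADH and succinate through ubiquinone and cytochrome c to oxygen, and complexes I, III and IV pump protons as they do so. Complex V, the ATP synthase, lets the protons flow back and makes ATP. Most subunits are encoded in the nucleus, made in the cytosol and imported, and they are joined in the inner membrane to a smaller set encoded by mitochondrial DNA. Their genes are known for shared control by NRF1 and by the ETS-family factor GABP, with coactivators of the PGC-1 family. Several complex IV subunits come in isoforms specific to lung, striated muscle or testis, and NDUFA4L2 is known as a target of hypoxia-inducible factor.

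To show promoters with and without the motifs known for these genes, 4 are printed here, from 250 bases before the gene's start to 50 bases after it, from RefSeq on GRCh38.p14. NDUFA7 is shown because it was the only gene called between ISO and control, UQCRQ because it had the smallest p in complex III, SDHD because it holds the NRF1 core, and COX5B because it holds the ETS core at separate places. The windows are chr19:8321326-8321625 on the minus strand for NDUFA7, chr5:132866392-132866691 on the plus strand for UQCRQ, chr11:112086623-112086922 on the plus strand for SDHD and chr2:97645812-97646111 on the plus strand for COX5B. Capitals mark every match, on either strand, to the core that NRF1 is known to bind, GCGCATGCG. They also mark the core of ETS-family factors, written CCGGAAG. The core of hypoxia response elements was searched as ACGTG and is marked likewise. The last motif marked is the TATA element, searched as TATAAA. The NRF1 core in SDHD is a palindrome, so its matches on both strands overlap in a single stretch, and in NDUFA7 the same holds for ACGTG.
NDUFA7: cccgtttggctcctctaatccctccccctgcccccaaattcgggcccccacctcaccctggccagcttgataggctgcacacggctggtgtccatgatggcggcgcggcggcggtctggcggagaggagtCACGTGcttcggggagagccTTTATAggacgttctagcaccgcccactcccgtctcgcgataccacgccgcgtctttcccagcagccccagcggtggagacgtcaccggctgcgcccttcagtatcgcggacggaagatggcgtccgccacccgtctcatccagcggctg
UQCRQ: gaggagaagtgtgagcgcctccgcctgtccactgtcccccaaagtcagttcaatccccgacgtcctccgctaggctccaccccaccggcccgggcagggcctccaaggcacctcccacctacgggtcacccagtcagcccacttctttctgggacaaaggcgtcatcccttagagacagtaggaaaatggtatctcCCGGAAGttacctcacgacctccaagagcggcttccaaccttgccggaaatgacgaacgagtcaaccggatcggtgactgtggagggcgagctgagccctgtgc
SDHD: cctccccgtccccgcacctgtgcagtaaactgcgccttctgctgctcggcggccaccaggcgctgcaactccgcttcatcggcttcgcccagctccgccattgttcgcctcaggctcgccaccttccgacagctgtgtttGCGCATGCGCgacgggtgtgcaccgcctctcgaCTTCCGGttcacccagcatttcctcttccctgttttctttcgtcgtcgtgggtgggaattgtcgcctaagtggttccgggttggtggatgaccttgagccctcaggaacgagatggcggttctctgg
COX5B: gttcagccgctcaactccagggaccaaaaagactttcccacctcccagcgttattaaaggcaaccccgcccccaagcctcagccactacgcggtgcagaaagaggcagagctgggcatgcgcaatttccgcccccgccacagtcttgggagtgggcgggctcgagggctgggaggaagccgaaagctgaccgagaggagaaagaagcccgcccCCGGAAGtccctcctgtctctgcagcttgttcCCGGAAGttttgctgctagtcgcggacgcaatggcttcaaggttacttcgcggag

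A window was found for 68 of the 86 genes, and 64 of these were among the genes tested below. The NRF1 core was in 10 of the 64 windows (15.6%), against 3.7% of the windows of all 10842 tested genes that had one and 2.1% of all 27305 RefSeq windows. It was in 4 of 31 complex I windows and 4 of 13 complex V windows, and in 0 of 7 complex III windows. The ETS core was in 20 of the 64 (31.2%), against 19.7% of tested genes and 10.7% of all windows. ACGTG was as frequent among the subunits (26.6%) as among tested genes (26.7%), and TATAAA was in 9.4% against 5.7%. These are matches of letters and show no binding. The median log2 fold change (ISO against control) was 0.04 in the 10 genes with the NRF1 core and 0.00 in the 54 without it, and for the ETS core -0.01 in 20 genes and 0.03 in 44.

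Before treatment effects, the levels themselves differed widely between subunits. RPKM, the reads per kilobase of a gene's exons scaled to the mapped reads of the library, were at least 1 on average in 77 of the 86 genes, and these 77 ran from 2.16 (NDUFA5) to 403 (COX8A) with a median of 31.99. COX8A, a small subunit of complex IV, made up 43.1% of the summed level of that complex. ATP5F1B, the catalytic beta subunit of ATP synthase, made up 32.7% of complex V, UQCRH, the hinge protein of complex III, 35.8%, SDHC, a membrane anchor of complex II, 39.1%, and NDUFS5, an accessory subunit, 18.4% of complex I. Level depends on how length is counted. The authors' exon length joins all annotated transcripts of a gene, and it was a median of 2.41 times, and for NDUFB9 24.0 times, the length of the canonical transcript. Over the canonical length the 77 levels spanned 80.8-fold instead of 186-fold. On that scale COX8A made up 20.8% of complex IV, ATP5F1B 16.8% of complex V, NDUFS5 9.10% of complex I and UQCRH 46.5% of complex III, and in complex II SDHB (28.5%) was above SDHC (27.4%). RPKM went down with exon length across the 77 genes (Spearman rho = -0.69, a description across genes, which share libraries), against -0.29 across 6208 genes at 5 RPKM or more. With canonical lengths in both measures rho over the 77 was -0.62. Length divides the reads in each of these levels, which by itself pulls rho below 0. The 77 genes were cut at 1 RPKM and the 6208 at 5 RPKM, so their values of rho are not matched.

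**Figure D1:**
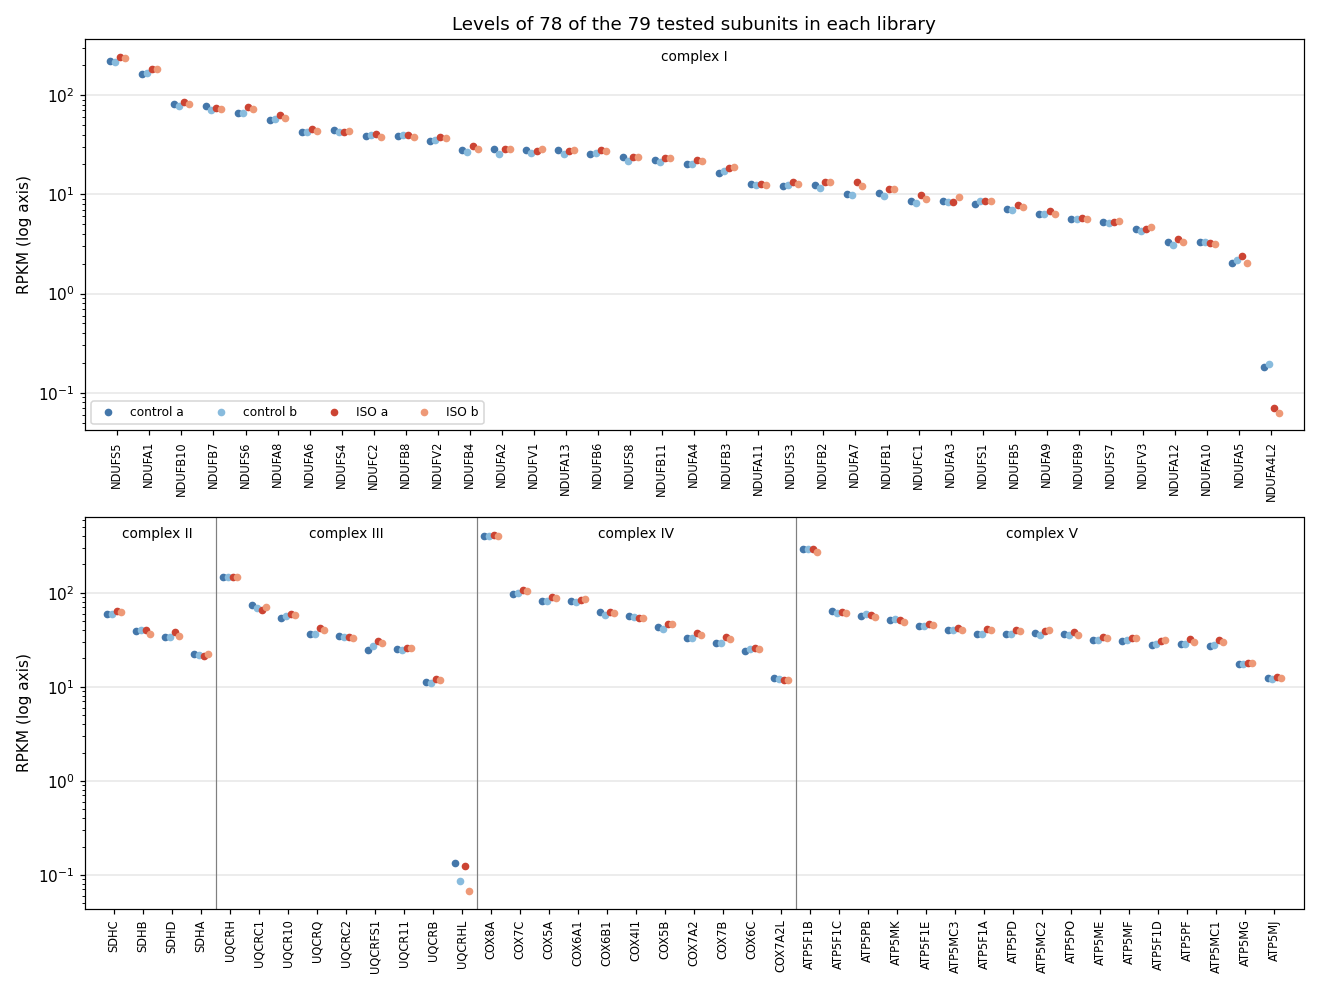
RPKM as deposited (log axis) of 78 of the 79 tested subunits, each point a library, with complex I in the upper panel and complexes II to V in the lower one, ordered by mean level. For nearly all genes the 4 points lie close together beside the range between genes, which runs from 2.16 to 403 RPKM apart from NDUFA4L2 and UQCRHL, both near 0.1.

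Of the 86 genes, 79 passed the filter of a mean RPKM of 0.1 and were tested. The genes not tested were isoforms and copies. COX4I2 (the lung isoform of subunit 4), COX6A2 and COX7A1 (the heart and muscle isoforms), and COX7B2 and COX8C (testis isoforms) had 0 reads in all libraries. With 3 reads over the 4 libraries as the limit, COX4I1 was at least 1978-fold higher than COX4I2, COX6A1 at least 2122-fold higher than COX6A2, COX7A2 at least 1102-fold higher than COX7A1, COX7B at least 1364-fold higher than COX7B2 and COX8A at least 11776-fold higher than COX8C, all as levels per length. COX6B2, the testis isoform of subunit 6B, had 12 and 5 reads in the control and 6 and 5 in the ISO libraries, a level 1321-fold under that of COX6B1. ATP5MGL, a copy of the gene for ATP synthase subunit g, had 1 and 0 reads in control and 0 and 1 in ISO. In both groups the ubiquitous isoform was thus the one measured for each of these subunits.

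The levels of these subunits differed little between ISO and control. With TMM scaling, which the study's methods name, 1 of 79 genes was higher in ISO (1.27%) and 0 were lower at an adjusted p under 0.05 from limma, whereas 4.33% of all 15304 tested genes were higher and 5.84% lower. At an unadjusted p under 0.05 from limma, 8 of 79 subunits were higher and 4 lower, against 2026 and 2152 of all 15304 tested genes. The unadjusted counts given below for single complexes and lists stand beside that background. The median log2 fold change was 0.014 over the subunits and 0.002 over all tested genes. Above 0 were 45 of 79 subunits and 7744 of all 15304 tested genes. In both ISO libraries 25 subunits (31.6%) lay above both controls and 18 (22.8%) below them, against a background of 29.0% and 28.4%. The fold change was within 1.25-fold either way for 78 of 79 subunits (98.7%) and for 86.0% of all tested genes, and among genes at 5 RPKM or more for 100% of the subunits and 95.1% of all. For 76 subunits the whole 95% interval lay within 1.25-fold, the exceptions being NDUFA7, NDUFA4L2 and UQCRHL. Among genes at 5 RPKM or more this held for 98.6% of 73 subunits and 85.8% of 6208 genes. The SD of the log2 fold changes was 0.074 in the former and 0.168 in the latter.

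**Figure D2:**
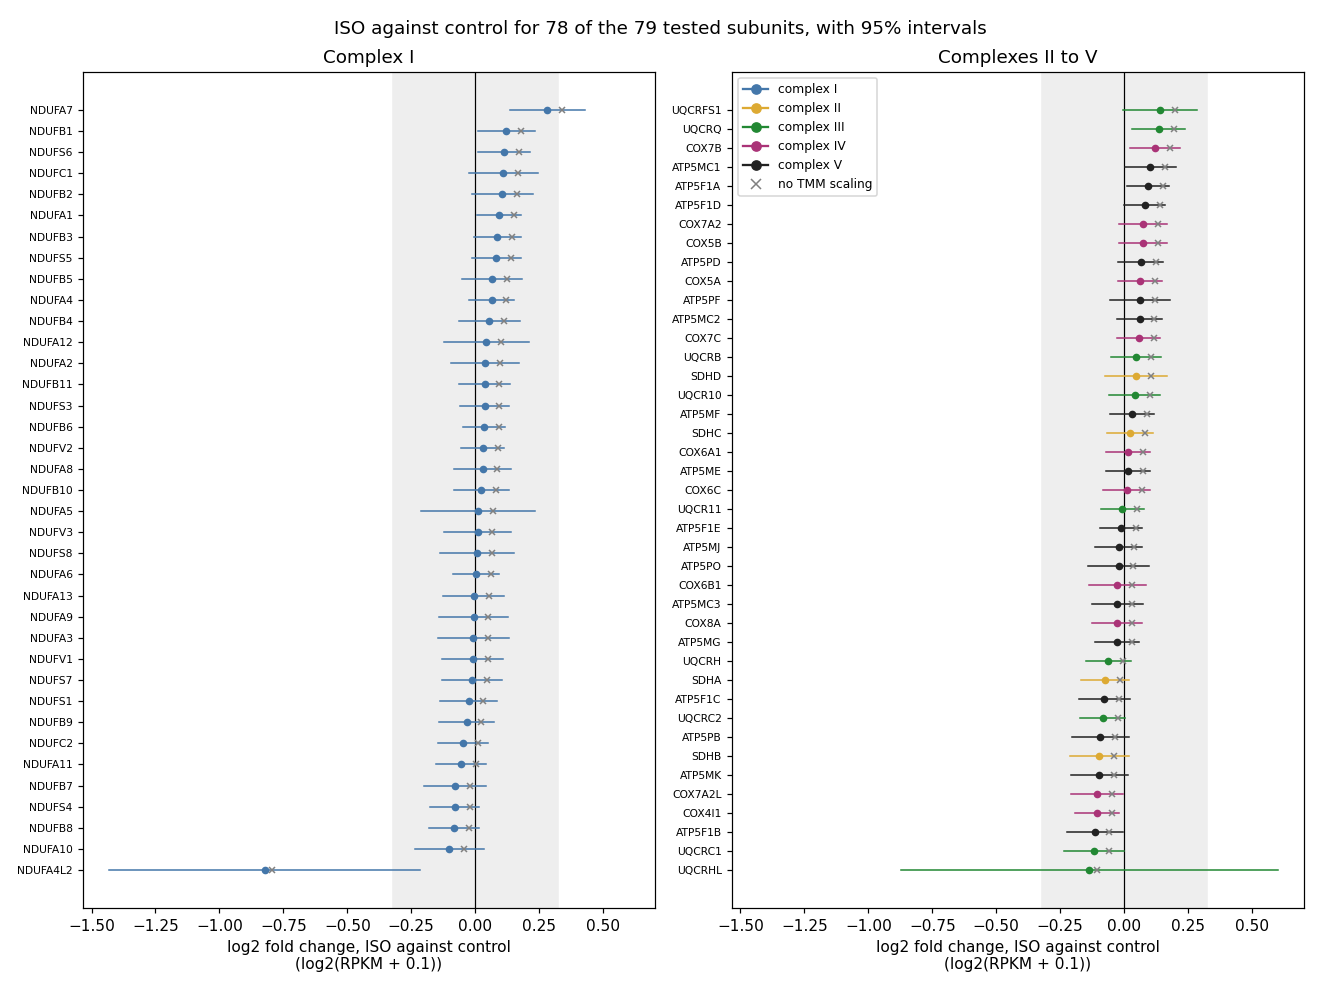
Fold change of 78 of the 79 tested subunits on the log2(RPKM + 0.1) scale, with points for the TMM-scaled fit, bars for its 95% intervals, crosses for the fit with no TMM scaling and a grey band for 1.25-fold either way. Only NDUFA4L2 has its point outside the band, and all but 3 intervals lie inside it. The crosses sit to the right of the points throughout.

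How many subunits passed depended on the scaling. Without TMM the median over all tested genes was 0.057 and that over the subunits 0.072, and 11 subunits were called higher by limma (13.9%, background 9.30%) and 0 lower (background 4.12%). These were NDUFA7, NDUFA1, NDUFB1, NDUFS5 and NDUFS6 of complex I, UQCRQ of complex III, COX5A and COX7B of complex IV, and ATP5F1A, ATP5F1D and ATP5MC1 of complex V. Among genes at 5 RPKM or more, the shares called higher without TMM were alike, 15.1% of 73 subunits and 15.0% of all 6208 genes. The sign changed for 17 of the 79 genes between the scalings. Over the whole table the calls were 663 higher and 894 lower with TMM, and 1424 higher and 630 lower without it. With limma-voom and TMM on the recovered reads, NDUFA7 and UQCRQ were higher (background 8.26%) and NDUFA4L2 was lower (background 10.2%), out of 78 subunits tested.

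Complex I takes electrons from NADH. Its 38 genes had log2 fold changes from -0.82 to 0.28 with a median of 0.03, and 24 of them were above 0. The -0.82 was that of NDUFA4L2, a paralog with few reads that is described below, and the next lowest value was -0.10. By limma 1 was called higher and 0 lower. At an unadjusted p under 0.05 the counts were 4 and 1, the lower gene being NDUFA4L2. NDUFV1, which binds NADH and the flavin, was at 28.7 and 26.2 TMM-scaled RPKM in control and 26.9 and 27.6 in ISO (log2 fold change -0.01). NDUFS1, the largest iron-sulfur subunit, was at 8.27 and 8.76 in control and 8.42 and 8.30 in ISO (log2 fold change -0.03). In both the groups overlapped. The summed level of the complex, in TMM-scaled RPKM, was 1244 and 1216 in the control and 1285 and 1240 in the ISO libraries, so the groups overlapped except for ISO a. NDUFS5, the most abundant, was at 224 and 221 in control and 241 and 231 in ISO (log2 fold change 0.08, adjusted p = 0.236 from limma).

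NDUFA7, an accessory subunit of complex I at chr19:8308768-8321375 on hg38 (minus strand), was the gene that rose. It was at 10.3 and 10.1 TMM-scaled RPKM in control and 13.2 and 11.7 in ISO, with 624, 586, 759 and 566 reads. Both ISO values lay above both controls, and ISO a lay further above than ISO b. The log2 fold change was 0.28 with a standard error of 0.061 (95% interval 0.14 to 0.43, adjusted p = 0.036 from limma). The adjusted p was 0.059 without control a, 0.072 without control b, 0.093 without ISO a and 0.033 without ISO b. It was 0.129 with no filter on low values.

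The exons of NDUFA7 overlap those of other genes, so reads in the shared bases could come from either gene. A read-through gene model on the same strand, which spans chr19:8308283-8321379, shares 452 of its 1392 exon bases, and RPS28, a ribosomal protein gene on the other strand at 95.7 to 104 RPKM, shares 68. The printed promoter of NDUFA7 lies inside RPS28, which spans chr19:8321158-8323340. The same-strand model had 112 and 74 reads in control and 54 and 101 in ISO. Of the ISO libraries, ISO a had more NDUFA7 and less of the model, and ISO b the reverse. Reads of NDUFA7 and that model together, scaled to the mapped reads after TMM (RPM), were 16.8 and 15.9 in control and 19.6 and 19.2 in ISO, a ratio of 1.19. The sum separated the groups with the ISO libraries closer to each other. RPS28 had a log2 fold change of -0.12 (adjusted p = 0.121 from limma). Whether the kit kept the strand is not given in the sources used here, and the part of these overlaps in the result was not tested.

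**Figure D3:**
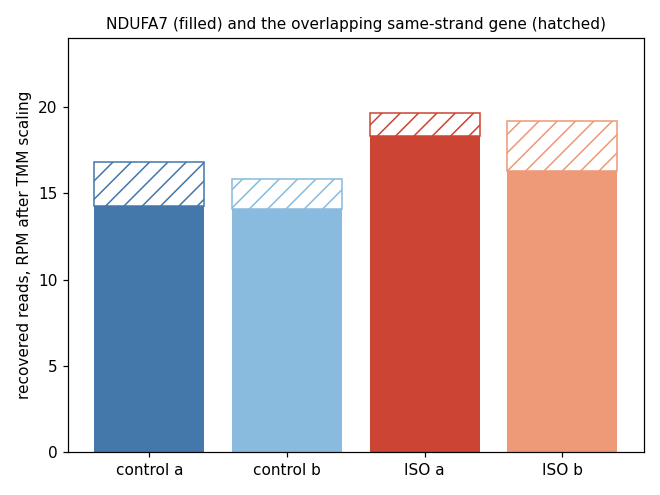
Recovered reads as RPM after TMM scaling for NDUFA7 (filled) and for the same-strand gene model that overlaps it (hatched), stacked, for each library. The stacks reach 16.8 and 15.9 in control and 19.6 and 19.2 in ISO, and the hatched part is smallest in ISO a.

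NDUFA4L2, at chr12:57234903-57240715 (minus strand), is a paralog of NDUFA4 that hypoxia induces and that lowers complex I activity. It had 23 and 23 reads in control and 8 and 6 in ISO, so the groups did not overlap. The ratio of ISO to control reads over depth was 0.341 with an exact 95% interval of 0.173 to 0.631 for counting error only. On the log2(RPKM + 0.1) scale it was -0.82 with a standard error of 0.25 and did not pass (adjusted p = 0.093 from limma), but it passed in limma-voom (log2 fold change -1.49, adjusted p = 0.015). The value moved from -0.16 with a pseudocount of 1 to -1.43 with 0.01, as all 4 levels were under 0.2 RPKM. Its last exon shares 33 bases with SHMT2, a serine and glycine enzyme of mitochondria on the other strand, which was at 63.3 and 62.0 RPKM in control and 48.5 and 50.2 in ISO and was lower (log2 fold change -0.40, adjusted p = 0.003 from limma). At that density 33 bases of SHMT2 hold 93.6 and 86.6 reads in control and 65.4 and 56.1 in ISO, more than the reads given to NDUFA4L2. The part of SHMT2 reads in its value was not tested. NDUFA4, 165 times as high, was at 20.6 and 20.5 TMM-scaled RPKM in control and 21.8 and 21.1 in ISO (log2 fold change 0.06, adjusted p = 0.321 from limma).

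Complex II, succinate dehydrogenase, is the only complex made wholly of nuclear subunits, and 0 of its 4 genes were called by limma or had an unadjusted p under 0.05. SDHA, the flavoprotein, was at 23.06 and 21.96 TMM-scaled RPKM in control and 21.17 and 21.53 in ISO, with both ISO values below both controls. SDHB, the iron-sulfur subunit, was at 39.9 and 40.4 in control and 39.2 and 35.9 in ISO, again with no overlap. Of all tested genes, 28.4% likewise had both ISO values below both controls. For both membrane anchors the groups overlapped, with ISO a above both controls and ISO b below both. SDHC was at 61.6 and 60.9 in control and 63.7 and 60.8 in ISO, and SDHD, whose promoter holds the NRF1 core, at 34.8 and 34.6 in control and 37.5 and 34.1 in ISO. Their log2 fold changes were -0.08 (SDHA), -0.10 (SDHB), 0.02 (SDHC) and 0.05 (SDHD), with adjusted p from 0.260 to 0.748 by limma. All 4 95% intervals lay within 1.25-fold.

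Complex III passes electrons from ubiquinol to cytochrome c, and 0 of its 9 genes passed in limma, with 1 at an unadjusted p under 0.05. That gene was UQCRQ, a small subunit near the ubiquinone site (chr5:132866630-132868847, plus strand), at 37.0 and 36.6 TMM-scaled RPKM in control and 41.8 and 39.0 in ISO (log2 fold change 0.14, standard error 0.043, adjusted p = 0.101). UQCRFS1, the Rieske iron-sulfur protein, was at 25.2 and 27.9 in control and 30.3 and 28.2 in ISO (log2 fold change 0.14, adjusted p = 0.196 from limma), where the lower ISO value was close to the higher control. The core proteins UQCRC1 and UQCRC2 had negative values of -0.12 and -0.08 (adjusted p = 0.186 and 0.203). UQCRH was at 151 and 150.0 in control and 146 and 142 in ISO (log2 fold change -0.06, adjusted p = 0.326 from limma). UQCRHL, an intronless copy of UQCRH, had 13, 8, 11 and 5 reads (log2 fold change -0.14, standard error 0.31), and at 1431-fold under UQCRH its reads are uncertain, since the copies are near-identical. Within the complex, values above and below 0 were about equal in number, 4 of 9 being above.

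Complex IV, cytochrome c oxidase, reduces oxygen. Of its 11 tested genes 0 were called by limma, 1 was higher and 2 were lower at an unadjusted p under 0.05. COX7B, a small subunit encoded on the X chromosome, was at 29.7 and 29.5 TMM-scaled RPKM in control and 33.2 and 31.3 in ISO (log2 fold change 0.12, adjusted p = 0.119). COX4I1, which binds ATP as a regulatory site, was at 57.6 and 56.2 in control and 53.7 and 51.9 in ISO (log2 fold change -0.11, adjusted p = 0.117). COX7A2L, which links complexes III and IV in supercomplexes, was at 12.7 and 12.2 in control and 11.7 and 11.4 in ISO (log2 fold change -0.11, adjusted p = 0.165). In each of these the groups did not overlap, with COX7B higher and COX4I1 and COX7A2L lower. Such separation was found in 5 of the 11 genes (45.5%) upward and 2 (18.2%) downward. Of all tested genes it was found in 29.0% and 28.4%. COX8A was at 411 and 403 in control and 405 and 392 in ISO, and COX6A1, COX6B1 and COX7A2 had log2 fold changes of 0.01, -0.03 and 0.07. The summed level of the complex in ISO was 1.001 times that in control.

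Complex V makes ATP, and 0 of its 17 tested genes were called by limma, with 2 higher and 1 lower at an unadjusted p under 0.05. The alpha and beta subunits, which together form the catalytic hexamer, went in opposite directions. ATP5F1A (alpha) was at 37.5 and 37.0 TMM-scaled RPKM in control and 40.3 and 39.3 in ISO (log2 fold change 0.09, standard error 0.034, adjusted p = 0.141). ATP5F1B (beta) was at 298 and 297 in control and 284 and 265 in ISO (log2 fold change -0.12, standard error 0.045, adjusted p = 0.163). In both the groups did not overlap, and neither passed in limma. Such separation was found in 5 of 17 genes of the complex upward and 5 downward (29.4% each). Of all tested genes it was found in 29.0% and 28.4%. ATP5MC1, ATP5MC2 and ATP5MC3 encode the same mature subunit c of the membrane rotor with different import peptides. They were at similar levels, ATP5MC1 at 28.01 and 28.49 in control and 31.26 and 29.44 in ISO, ATP5MC2 at 37.7 and 36.3 in control and 38.2 and 39.0 in ISO, and ATP5MC3 at 41.5 and 40.9 in control and 41.7 and 39.3 in ISO. Their log2 fold changes of 0.10, 0.06 and -0.03 had adjusted p from 0.173 to 0.726 by limma.

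On the TMM scale, the 2 ISO libraries differed from each other by more than ISO differed from control. This did not hold on the deposited scale, but there the median over all tested genes was shifted as well. Relative to each gene's mean over the 4 libraries, the median subunit lay at 0.015 in control a, -0.018 in control b, 0.031 in ISO a and -0.020 in ISO b on the log2 scale. ISO a was above ISO b in 68 of 79 subunits by a median of 0.051, while over all tested genes it was above in 8038 of 15304 by a median of 0.007. Control a was above control b in 56 of 79 by 0.020. Without TMM the median subunit lay at -0.020 and -0.041 in control a and b and at 0.051 and 0.018 in ISO a and b, so ISO a was above ISO b by a median of 0.032, less than the fold change of 0.072. Over all tested genes on that scale, the median of ISO a minus ISO b was -0.010 and the median fold change 0.057. The 0.072 thus holds a shift found over all genes. ISO b is the shallowest library, and the part of depth in this was not tested. Without ISO a the median fold change of the subunits was -0.011, without ISO b 0.045, without control a 0.028 and without control b -0.006.

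**Figure D4:**
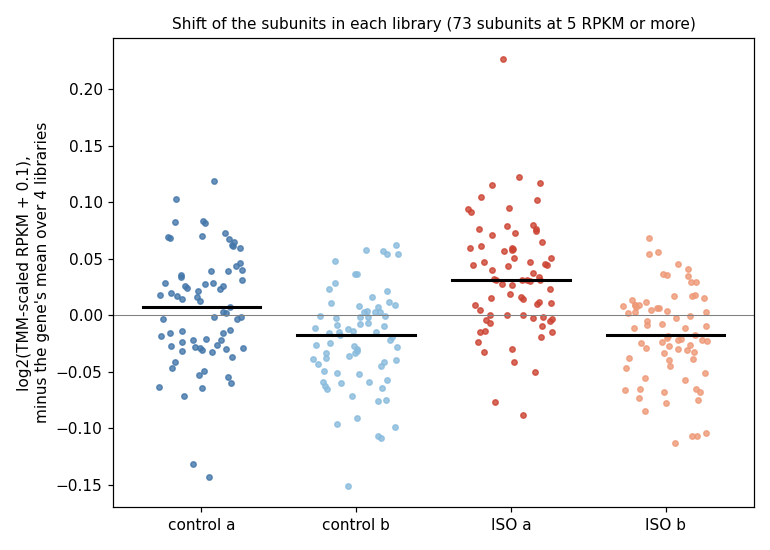
Each point is a subunit at 5 RPKM or more (73 genes), placed by its log2 TMM-scaled level minus its mean over the 4 libraries, with black lines at the medians and sideways jitter for sight only. ISO a lies highest, while control b and ISO b share about the same position.

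Genes around the subunits were read from lists in the same fit. Of 57 assembly factors tested, 4 were higher and 0 lower by limma, and at an unadjusted p under 0.05 the counts were 17 and 1. Both ISO values lay above both controls in 33 (57.9%, background 29.0%) and below them in 5 (8.77%, background 28.4%). Above 0 were 43, with a median log2 fold change of 0.07. For this and the following lists, 7744 of all 15304 tested genes above 0 are the background. ATPAF1, a chaperone for the beta subunit of ATP synthase, was at 5.86 and 6.06 RPKM as deposited in control and 7.87 and 7.65 in ISO (log2 fold change 0.32, adjusted p = 0.012 from limma). TACO1, which activates translation of mitochondrial COX1, rose by 0.40 on the same log2 scale (adjusted p = 0.022), and the complex IV assembly factors COA3 and COX14 by 0.23 and 0.20 (adjusted p = 0.022 and 0.024), though COX14 did not pass in limma-voom (0.056). Higher calls made 7.02% of this list, beside the 4.33% of all genes. By limma-voom 6 of the 57 were higher (all genes 8.26%) and without TMM 12 were (all genes 9.30%), and whether the assembly factors differ from the subunits was not tested. Of the 13 subunits encoded by mitochondrial DNA, 0 were called by limma, 4 were higher and 0 lower at an unadjusted p under 0.05, and 10 were above 0, with a median of 0.11. Called higher by limma-voom with TMM were 6 of the 13 (all genes 8.26%), and by limma without TMM also 6 (all genes 9.30%). MT-CO2, a core subunit of complex IV, was at 5151 and 5136 RPKM in control and 6325 and 6042 in ISO (log2 fold change 0.21, adjusted p = 0.130 from limma, 0.0012 from limma-voom), and MT-CYB, cytochrome b of complex III, at 2279 and 2234 in control and 2374 and 2247 in ISO (log2 fold change -0.03).

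Of 15 tested regulators of respiratory genes, 0 were higher and 1 (6.67%) lower by limma, beside the 5.84% of all genes, and at an unadjusted p under 0.05 the counts were 1 and 2. Only 3 of the 15 were above 0, with a median log2 fold change of -0.06, and without TMM 7 were. Both ISO values lay below both controls in 7 (46.7%, background 28.4%) and above them in 1 (6.67%, background 29.0%). LONP1, the matrix protease that also degrades TFAM, was at 15.8 and 15.4 RPKM in control and 13.3 and 14.5 in ISO (log2 fold change -0.22, adjusted p = 0.038 from limma), a call lost without TMM scaling (0.085) and kept in limma-voom (0.0021). TFAM, which packages and transcribes mitochondrial DNA, was at 14.3 and 15.4 in control and 18.0 and 16.7 in ISO (log2 fold change 0.17, adjusted p = 0.119 from limma), and it passed as higher in limma-voom (0.020) and without TMM (0.047). NRF1 itself was at 3.57 and 3.83 in control and 3.51 and 3.82 in ISO, with both groups overlapping. PPARGC1A, the PGC-1 alpha gene, had 5 and 7 reads in control and 5 and 15 in ISO and was not tested. Of 10 further subunits and carriers outside the symbol rule, 0 were called by limma, among them CYC1 (log2 fold change 0.11, adjusted p = 0.092) and NDUFAB1 (-0.13, adjusted p = 0.053), and 9 were above 0.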

How the data were processed

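The authors aligned paired-end reads from TruSeq libraries to hg38 and deposited RPKM, reads per kilobase of summed exons scaled to mapped reads, with no TMM scaling and no log. GENCODE 44 exon lengths turned 98.8% of the nonzero values of each library into whole reads (tolerance 0.05). These recovered reads gave TMM factors by own code (trims of 30% of log ratios and 5% of levels) of 0.976 and 0.984 for control a and b, and 1.01 and 1.03 for ISO a and b. The main test was limma-trend (limma 3.58.1, R 4.3.3) on log2(TMM-scaled RPKM + 0.1) for genes whose deposited RPKM averaged 0.1 or more, Benjamini-Hochberg adjusted over all 15304 genes, on 2 residual degrees of freedom. A fold change on this scale understates that of low genes. At 1 kilobase 3 reads equal 0.0670 to 0.0885 RPKM. The letters a and b were not taken as pairs. Members, lists and the TMM choice were set with earlier results of these data known, including that the balance of calls moves with TMM. Alternatives were other scalings, pseudocounts and filters, each library left out, a block and limma-voom. Genes named with values were the called genes and, in each complex, the highest level, the largest changes and the smallest p, with the isoform sets, SDHA to SDHD and up to 4 called genes of each list. Overlapping genes, COX5B, NDUFA5, NDUFB9, NDUFS1, NDUFV1, UQCRC1, UQCRC2, CYC1, NDUFAB1, TFAM, NRF1, PPARGC1A, MT-CO2 and MT-CYB were named after their values were seen. Tables used pandas 2.3.3 with numpy 2.4.6 in Python 3.11.15, and plots matplotlib 3.10.9. A gene of the set is left out of the plots by name and is not reported here.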

Additional observations from a re-analysis of the deposited data

How the results depend on the processing

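The subunits called higher went from 1 (all genes 4.33%) to 11 without TMM scaling (9.30%) and to 2 with limma-voom on recovered reads (8.26%). With no filter on low values the count was 0. The subunits called lower went from 0 (all genes 5.84%) to 1 (NDUFA4L2) with limma-voom (10.2%). For the other settings the share over all genes is not given, so their counts are not read as results about the subunits. Leaving out a single library treats the remaining library of that group as varying like the other group, and counts from those fits are not given. The median log2 fold change of 0.014 became 0.072 without TMM and lay between -0.011 and 0.045 with a library left out. Without TMM the values of ATP5MC3, COX6B1 and COX8A turned to 0.0316, 0.0320 and 0.0303. With a library left out, values ran from -0.0707 to 0.0171 for ATP5MC3, -0.0126 to 0.0400 for COX6A1, -0.0809 to 0.0280 for COX6B1, -0.0107 to 0.0562 for SDHC, -0.0240 to 0.114 for SDHD and -0.346 to 0.0731 for UQCRHL, each crossing 0. Median-of-ratios scaling, pseudocounts of 1 and 0.01 and a minimum mean RPKM of 1 each gave 1 higher and 0 lower. The differences between libraries a and b in control and in ISO correlated at r = -0.126 across 6208 genes. Among the subunits after TMM scaling, ISO a was above ISO b in 68 of 79, and control a above control b in 56 of 79. The sources do not state whether the letters mark pairs, and these values cannot tell. With the letter as a replicate block, 1 subunit was higher and 0 lower (NDUFA7, adjusted p = 0.034 from limma), and with the letters crossed, added after the data were seen, the counts were 1 and 0. Causes of these shifts were not tested. With 2 libraries a group and TMM scaling, the whole interval lay within 1.25-fold for 76 of 79 subunits. The exceptions were NDUFA4L2 and UQCRHL, at their few reads, and the called gene NDUFA7, whose log2 interval ran from 0.14 to 0.43. Intervals without TMM are not given. The spread between libraries may be only technical, so these intervals may not bound the effect of ISO.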
